A study of Mus musculus with 6 samples.

Results

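Steap4 was followed across the neutrophil lineage as 1 of the 23016 genes in the deposited single-cell count table. It was chosen because earlier results of these data had shown it to be lower in neutrophils of aged than of young blood, so its levels and its difference with age are given as descriptions, with no test. The cells came from wild-type mice and filled 6 libraries, 1 per group, made with a droplet kit that tags the 3′ ends of transcripts with unique molecular identifiers (UMIs). Aged and young mice each gave bone marrow 24 h after experimental stroke (middle cerebral artery occlusion), blood at steady state and bone marrow at steady state. The marrow libraries combine cells enriched for Gr1 and for c-kit (Gr1+, c-kit+). The blood libraries combine 2 CD11b+ fractions, Ly6G− and Ly6G+, and these selections bear on which cells could be counted. Ages in weeks and mice per library are not stated in the labels. With 1 library per group, age, context and library cannot be told apart, and every interval below (95%) covers counting error only.

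STEAP4 is a membrane metalloreductase of the STEAP family, which uses electrons from NADPH to reduce ferric iron and cupric copper so that the metals can be moved across membranes. In mice the gene is also known as a target of tumour necrosis factor in fat tissue, under the names Tiarp and Tnfaip9, and mice that lack it have been described with inflamed joints and altered neutrophil migration. Neutrophils arise in the marrow from progenitors that make azurophil granule proteins, divide as they make specific granule proteins, stop dividing as immature cells, and leave for the blood as mature cells that express receptors such as Cxcr2 and Csf3r.

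In the GENCODE annotation of the mouse build GRCm38, which the submitters' processing notes also name, Steap4 (ENSMUSG00000012428) is a protein-coding gene on the plus strand of chromosome 5, from 7960457 to 7982213, with 1 annotated transcript of 3155 bases and no overlapping gene. Of the 470 words of 31 bases in the last 500 bases of that transcript, 0 occurred in an annotated transcript of another gene. Its promoter is shown because the gene was counted mainly in the last stage of the lineage. RefSeq (GRCm38.p6; the 1 gene matched by symbol) gives 300 bases around the start at chr5:7960222-7960521, plus strand, of which 250 lie before the start and 50 after it. This RefSeq start lies downstream of the GENCODE start given above, and the distances below are counted from the RefSeq start. Capitals mark matches to the searched motifs.
Steap4 promoter: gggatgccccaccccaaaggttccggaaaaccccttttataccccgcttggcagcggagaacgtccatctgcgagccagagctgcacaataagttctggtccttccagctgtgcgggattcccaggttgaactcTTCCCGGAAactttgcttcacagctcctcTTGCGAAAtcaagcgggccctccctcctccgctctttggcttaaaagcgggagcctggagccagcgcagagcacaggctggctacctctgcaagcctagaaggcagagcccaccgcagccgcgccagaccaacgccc
On either strand, TTCNNNGAA, the palindrome bound by STAT factors, matched 1 time, at TTCCCGGAA, which starts 116 bases before the RefSeq start. Of the 32851 RefSeq promoters of this length, 8.30% hold such a match. TTGCNNAA, the core of sites bound by C/EBP factors of the granulocyte lineage, matched 1 time, at TTGCGAAA, which starts 87 bases before the start, and 10.8% of promoters hold one. An interferon response element (GAAA, any 2 bases, GAAA) matched 0 times and is held by 3.44% of promoters. The word searched for NF-kB (GGGA, any 2 bases, TTCC) matched 0 times and is held by 1.47%. Shorter or looser forms of these sites were not searched, so 0 matches do not show that such a site is absent. The 2 matches do not overlap, and they describe these letters only.

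After filtering, the libraries held 2631 (aged) and 2243 (young) cells of stroke marrow, 5240 and 1898 cells of blood, and 6190 and 7961 cells of steady-state marrow. The median deposited cell had 9302 (aged) and 3811 (young) UMIs in stroke marrow, 4682 (aged) and 4004 (young) in blood, and 9150 (aged) and 7743 (young) in steady-state marrow. Between 0.584% and 1.26% of a library's barcodes occurred in another library. Clusters were named from marker genes, with Steap4 left out of the genes used to cluster, and all names stand for "like" the class. In the 7 blood clusters named mature neutrophil, the summed level of Cxcr2, Csf3r, Il1b and Msrb1 was 12816 to 18757 counts per 1000000 UMIs of the sum (CPM) per cluster and library. That of the granule genes Camp, Ltf and Ngp was 0 to 673 CPM. The naming rule itself compared these sums, so they describe the clusters and do not test the name.

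Steap4 was a transcript of mature neutrophils. In blood, 97.3% of all its UMIs were in the clusters named mature neutrophil in the aged library, and 97.3% in the young library. The level in those clusters was 31.2 CPM (28.3 to 34.4) in aged blood, from 425 UMIs in 3274 cells, and 93.7 CPM (86.0 to 102) in young blood, from 546 UMIs in 1502 cells. In stroke marrow, the 1 cluster named mature neutrophil had 98.2 CPM (39.5 to 202) in the aged library, from 7 UMIs in 25 cells, and 136 CPM (93.0 to 192) in the young library, from 32 UMIs in 64 cells. The aged stroke class has fewer cells than the minimum of 30 used elsewhere, and its value rests on 5 cells with a UMI. Ordered by level, young stroke marrow, aged stroke marrow and young blood have overlapping intervals, and aged blood lies below all 3.

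Earlier stages had few or no Steap4 UMIs. Immature neutrophils of stroke marrow had 0 UMIs in 472 aged cells, where 3 counts would be 0.563 CPM, and 4 UMIs in 384 young cells (1.04 CPM), all of them in 1 cell. Immature neutrophils of steady-state marrow had 1 UMI in 667 aged cells (0.218 CPM) and 1 in 844 young cells (0.207 CPM). Dividing pre-neutrophils had 0 UMIs in stroke marrow at either age, and 1 (aged, 474 cells) and 2 (young, 741 cells) at steady state. Neutrophil-primed progenitors had 0 UMIs in stroke marrow at either age, and 4 (aged, 0.172 CPM) and 13 (young, 0.496 CPM) at steady state. Of those, 2 aged and 12 young UMIs were in a cluster that carries both Elane and the later markers Retnlg and Camp, so the progenitor value is uncertain. Some UMIs lay in clusters that were given no name. In steady-state marrow, the unnamed cluster with the most RNA of the 4 mature markers had 6 UMIs in 130 aged cells (6.38 CPM) and 0 in 115 young cells. In stroke marrow, an unnamed cluster led by Lyz2, Chil3 and Saa3 had 0 UMIs in 173 aged cells and 10 in 240 young cells (2.73 CPM). Within aged stroke marrow, the mature class stood 174-fold above the level that 3 counts would give in the immature class, which had 0 UMIs. The lower limit of the log2 ratio of mature over immature, from counting error in both sums, was 6.75. In young stroke marrow the mature class was 131-fold higher than the immature class (log2 ratio 7.03, 5.54 to 8.99).

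**Figure D1:**
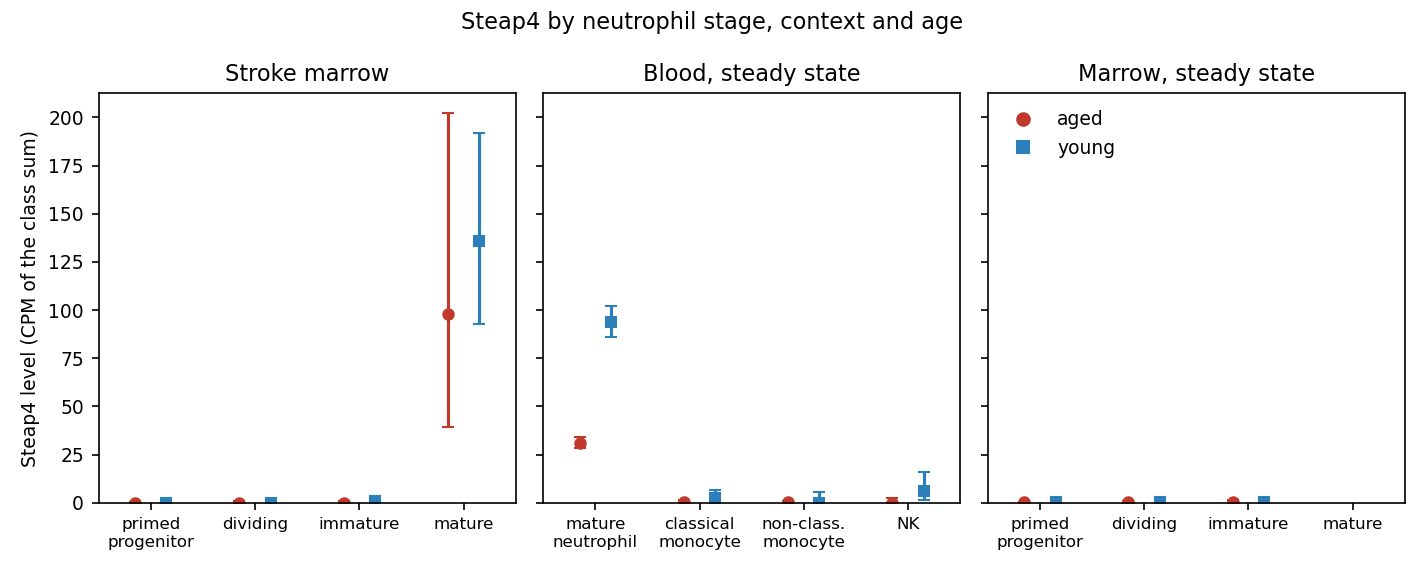
Steap4 level (CPM of the class sum, y axis) by class (x axis) in stroke marrow, blood and steady-state marrow, for aged (circles) and young (squares) libraries; bars are 95% Poisson intervals. The mature classes of stroke marrow (aged 98.2 CPM from 25 cells, young 136 CPM) and of blood (aged 31.2 CPM, young 93.7 CPM) stand above every other class drawn, and no steady-state marrow cluster was named mature.

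Steap4 was also counted in other blood cells. B, T and NK cells together had 1 UMI in 483 aged cells (0.323 CPM) and 4 UMIs in 166 young cells (3.91 CPM), and the young UMIs were all in 1 NK cell. Monocytes had 6 UMIs in 1294 aged cells (0.404 CPM) and 4 in 196 young cells (1.80 CPM). Steap4 in mature neutrophils was 77.3-fold and 52.2-fold above monocytes in aged and young blood (log2 ratios 6.27, 5.14 to 7.73, and 5.71, 4.34 to 7.59). A blood cluster led by haemoglobin genes had 5 UMIs in 70 aged cells (8.93 CPM) and 7 in 25 young cells (37.4 CPM), 3 cells with a UMI at each age. That cluster also carried the 4 mature neutrophil markers at 3454 CPM, and the part of neutrophil RNA in its Steap4 was not tested.

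The share of cells with at least 1 Steap4 UMI followed the level. Without thinning it was 7.03% (6.17 to 7.95) of mature neutrophils in aged blood and 15.2% (13.5 to 17.2) in young blood, where the median cell had 4021 and 3883 UMIs. With each cell thinned to 1500 UMIs it was 3.48% (2.88 to 4.17) of 3272 aged cells and 9.17% (7.71 to 10.8) of 1407 young cells, and 2 aged and 95 young cells were too shallow and were left out. In stroke marrow the unthinned share was 20% (6.83 to 40.7) of 25 aged cells and 20.3% (11.3 to 32.2) of 64 young cells, and the thinned share was 9.09% of 22 aged and 14.8% of 61 young cells. A difference between these shares was not detectable at this depth. As background, the unthinned share was 0.207% of aged and 0.602% of young B, T and NK cells of blood, whose median cells had 5730 and 5518 UMIs.

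The UMIs were uneven between cells of the same class. In aged blood, 3044 mature neutrophils had 0 Steap4 UMIs, 124 had 1, 58 had 2, and 48 had 3 or more, up to 8. In young blood, 1273 had 0, 85 had 1, 67 had 2, and 77 had 3 or more, up to 9. In thinned cells the variance over the mean, which is 1 for a Poisson count, was 1.43 in aged and 1.81 in young blood. Among genes whose mean lay within 1.5 times that of Steap4, this was rank 18 of 1751 in aged blood (median gene 1.05) and rank 8 of 1098 in young blood (median gene 1.07), so Steap4 was among the most unevenly counted genes of its level in both libraries.

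The gene was chosen through the contrast of aged with young blood, so nothing is read from its size. Mature neutrophils of aged blood had 0.333 times the Steap4 level of those of young blood, a log2 ratio of −1.58 (−1.77 to −1.40). Among 4391 genes averaging 20 CPM or more, 0.911% were lower in aged blood by at least 2-fold, and Steap4 stood at rank 10 from the lowest ratio. That share was 1.07% at a mean of 50 CPM and 9.13% over all genes with a UMI. Most aged cells were in clusters 4, 2 and 1 and most young cells in clusters 5 and 8, so the ratio was also taken within clusters. Steap4 was lower in the aged library in 7 of 7 clusters, with ratios of −0.68 to −1.77 and an interval below 0 in 5 of them. For comparison, 10.1% of genes were lower in aged blood in each of the 6 clusters with at least 30 cells in both libraries. Over those 6 clusters the equal-weight mean ratio was −1.26, closer to 0 than the pooled ratio.

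Within blood, Steap4 varied between the clusters as well. The lowest cluster levels were 18.7 CPM (aged, cluster 0) and 30.1 CPM (young, cluster 0, from 2 UMIs), in the cluster with the most platelet RNA (Pf4 and Ppbp together 534 CPM, against 9.36 to 30.4 CPM in the others). The highest were 52.2 CPM (aged, cluster 5) and 129 CPM (young, cluster 8). Cluster 8 was the one richest in interferon-stimulated genes, whose summed level there was 9082 CPM (aged) and 11496 CPM (young). Steap4 in that cluster was 41.9 CPM against 29.7 CPM in the other aged mature neutrophils (log2 ratio 0.50, 0.12 to 0.87), and 129 CPM against 81.2 CPM in the other young ones (0.66, 0.40 to 0.92). These ratios are under 2-fold, which 1.82% (aged) and 1.92% (young) of genes passed in that direction. From the highest ratio down, Steap4 stood at rank 161 of 4398 genes (aged) and rank 145 of 4385 (young). Without cluster 8 the aged over young ratio in blood was −1.45 (−1.67 to −1.23).

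**Figure D2:**
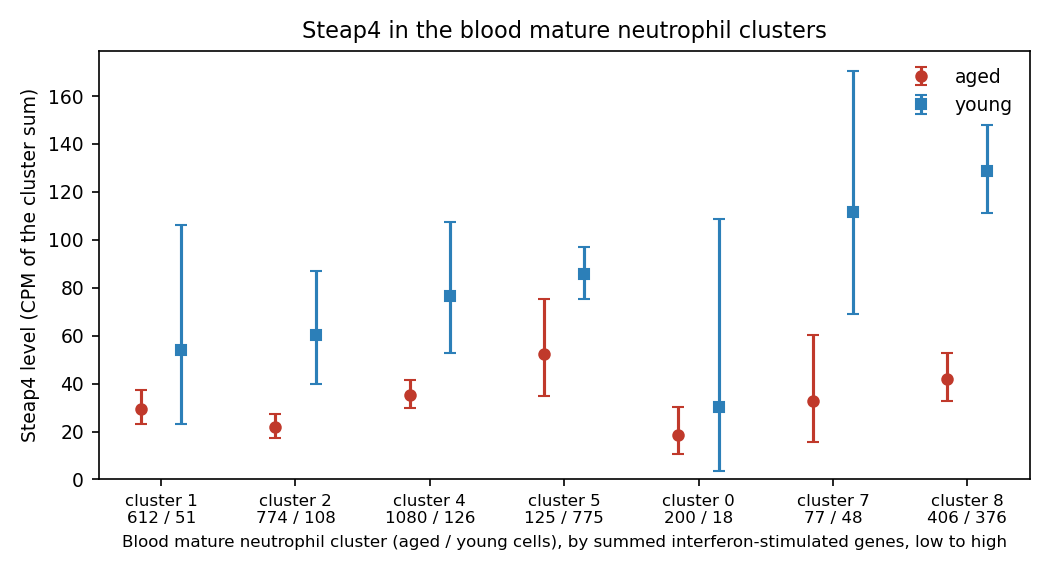
Steap4 level (CPM of the cluster sum, y axis) in the 7 mature neutrophil clusters of blood, ordered from left to right by the summed level of interferon-stimulated genes, for aged (circles, left of each pair) and young (squares) libraries; cell numbers stand under each cluster and bars are 95% Poisson intervals. The aged point lies below the young point in all 7 clusters, and the intervals overlap in clusters 0 and 1, which have 18 and 51 young cells.

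In marrow, the comparison of ages rests on few cells. Mature neutrophils of stroke marrow had 98.2 CPM in the aged and 136 CPM in the young library, a log2 ratio of −0.47 (−1.89 to 0.74), whose interval includes both no difference and the ratio seen in blood. In that class 17.9% of genes were lower in the aged library by at least 2-fold. With immature and mature cells joined, the level was 1.30 CPM (aged, 497 cells) and 8.82 CPM (young, 448 cells), a log2 ratio of −2.77 (−4.18 to −1.58), where 1.04% of genes averaging 20 CPM or more, a filter that Steap4 did not pass there, were lower by at least 2-fold. The makeup of the joined class differed, with 25 aged and 64 young mature cells, and its part in that ratio was not tested. In steady-state marrow the joined class had 1 UMI at each age, and no age difference was detectable at this depth.

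The contexts were compared within each age. Blood stood above steady-state marrow in the joined class of immature and mature cells, with 31.2 against 0.218 CPM in aged mice (log2 ratio 7.16, 4.68 to 12.47) and 93.7 against 0.207 CPM in young mice (8.82, 6.34 to 14.13). Each marrow value is 1 UMI, and no steady-state marrow cluster was named mature, so these ratios compare mature blood cells with immature marrow cells. With cells of at least 1000 UMIs, the young marrow class had 8 UMIs in 755 cells, and the young ratio was 5.65 (4.66 to 6.87). In these comparisons 36.6% (aged) and 36.8% (young) of genes averaging 20 CPM or more, a filter that Steap4 did not pass in the aged pair, were higher in blood by at least 2-fold, and the median gene had a log2 ratio of 0.60 (aged) and 0.56 (young). Stroke marrow stood above steady-state marrow in the joined class, with 1.30 against 0.218 CPM in aged mice (2.57, −0.39 to 8.07) and 8.82 against 0.207 CPM in young mice (5.41, 2.84 to 10.76), where the young ratio was 2.22 (1.09 to 3.54) with cells of at least 1000 UMIs. The mature cells of stroke marrow account for 7 of the 7 aged and 32 of the 36 young UMIs.

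Mature neutrophils were present in both stroke marrow and blood and can be set side by side. Steap4 was 98.2 CPM in stroke marrow against 31.2 CPM in blood of aged mice (log2 ratio 1.65, 0.33 to 2.71), and 136 against 93.7 CPM in young mice (0.54, −0.02 to 1.05). The interval of the young ratio reaches 0 here and lies above 0 with TMM scaling (0.10 to 1.17), DESeq2 size factors (0.10 to 1.17) or a minimum of 1000 UMIs (0.12 to 1.19). Without the 10 cells of each class with the most Steap4 UMIs, the young ratio was −2.39 (−4.68 to −0.84). That step takes 10 of the 13 cells with a UMI from the young stroke class, but 10 of 229 from young blood. It lowers the small class far more, so the change of sign cannot decide the direction. The young stroke value rests on those 13 cells. The aged stroke value rests on 7 UMIs in 5 cells, all of which the step removes, so the aged ratio then has no value. In thinned cells the aged shares with a UMI were 9.09% (1.12 to 29.2) in stroke marrow and 3.48% (2.88 to 4.17) in blood, and these intervals overlap. The background was wide, since 12.1% (aged) and 6.44% (young) of genes were higher in stroke marrow by at least 2-fold. Tissue and stroke differ together in this pair and cannot be told apart.

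Steap4 was then read along a per-cell maturation score, the mean of mature minus immature markers, cut into 5 ranges that are not cell types. In young stroke marrow the level was 0 in ranges 1 and 2. It was 14.96 CPM (4.86 to 34.9) in range 3, from 5 UMIs in 56 cells. Range 4 had 114 CPM (68.9 to 179), from 19 UMIs in 40 cells, and range 5 had 182 CPM (93.8 to 317), from 12 UMIs in 24 cells. In aged stroke marrow the level was 0 in ranges 1 to 3. It was 62.1 CPM (16.9 to 159) in range 4, from 4 UMIs in 16 cells, and 67.1 CPM (8.13 to 242) in range 5, from 2 UMIs in 12 cells. Blood cells fell almost wholly in the top pair of ranges, with 21.1 CPM (16.6 to 26.5) and 34.5 CPM (30.98 to 38.4) in aged blood and 75.0 CPM (61.3 to 90.9) and 99.8 CPM (90.6 to 110) in young blood. At like scores the aged value was the lower one in each range with a UMI in blood that held at least 30 cells of each age. Range 3 of blood went the other way, with 4 UMIs in 3 aged cells, 200 CPM (54.5 to 512), and 0 UMIs in 6 young cells. Steady-state marrow was concentrated in the lowest range, with 615 aged and 748 young cells and 1 and 0 UMIs. Range 3 of young steady-state marrow had 1 UMI in 16 cells, 15.3 CPM (0.387 to 85.1). With 1 UMI, its likeness to the 14.96 CPM of that range in young stroke marrow cannot be judged. Of the steady-state marrow cells that did carry Steap4, 15 aged and 17 young, the median summed level of the 4 mature markers was 2117 and 965 CPM, against 296 and 296 CPM over all cells of those libraries.

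**Figure D3:**
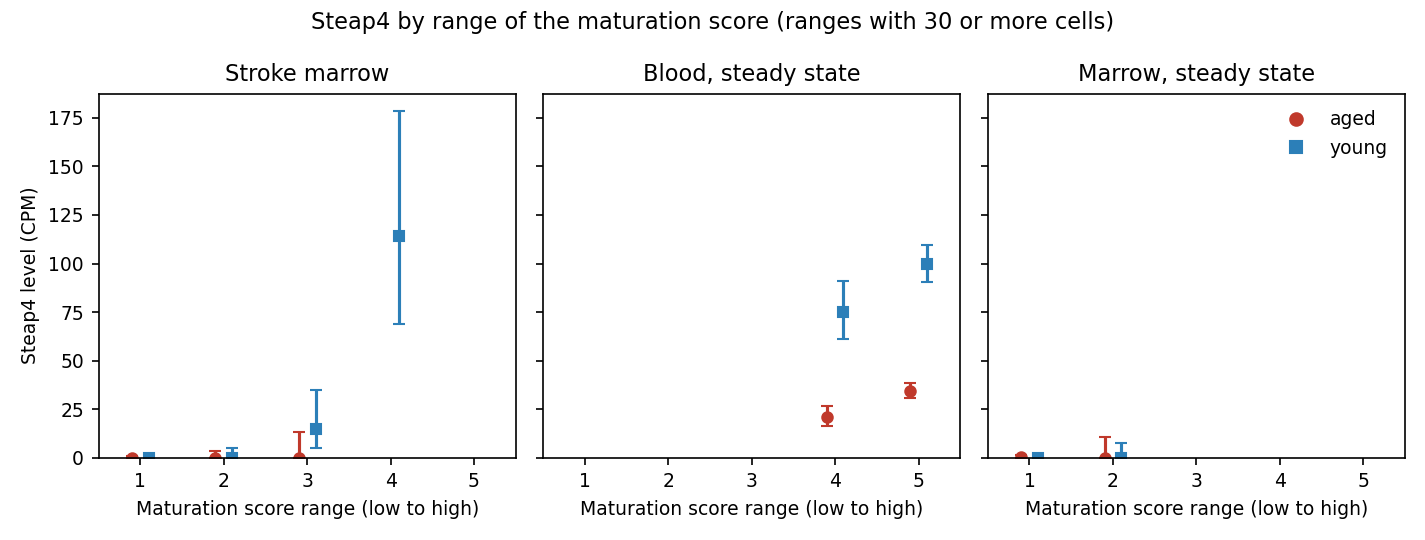
Steap4 level (CPM, y axis) by range of the maturation score (x axis, low to high) in stroke marrow, blood and steady-state marrow, for aged (circles) and young (squares) libraries; only ranges with at least 30 cells are drawn and bars are 95% Poisson intervals. Young stroke marrow stands at 14.96 CPM in range 3 and 114 CPM in range 4, and in blood range 5 is above range 4 at both ages.

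Of the STEAP family, Steap3, the ferrireductase of developing red cells, was the other member analysed here, and Steap1 and Steap2 were not analysed here. Steap3 showed another distribution. It had 1 UMI in the mature neutrophils of aged blood (0.0735 CPM) and 1 in those of young blood (0.172 CPM). Its highest levels were in erythroid cells of steady-state marrow, at 74.1 CPM (aged) and 71.8 CPM (young), and neutrophil-primed progenitors there had 14.1 and 12.6 CPM, at the stage where Steap4 was near 0.

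The genes whose level over the 53 sums of library and class (at least 30 cells each) followed that of Steap4 most closely, on log2(CPM + 20), were mostly unnamed or pseudogene loci of low level. Gm37347 had the highest Pearson r, 0.968, with 26.8 CPM in aged and 50.5 CPM in young blood mature neutrophils and 80.8 CPM in the young stroke class. Gm17455 (r = 0.968), Piwil2 (0.965), a PIWI-family gene best known from the germ line, and 1600022D10Rik (0.956) followed. Rpl21-ps1, 1700071M16Rik, 5930403N24Rik, Gm13006, Gm11827 and Gm15729 had r of 0.943 to 0.954. The sums share libraries, and 3 of the 53 are mature neutrophil sums, and outside those 3 the level of these 10 genes was at most 0.804 to 12.5 CPM.

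Co-variation was also read across single cells of blood mature neutrophils, thinned to 1500 UMIs, for the 2254 genes with at least 50 CPM in both libraries. Most of it did not carry over between libraries. Of the 50 genes with the highest r in young blood, 25 had r above 0 in aged blood, where 52.9% of all genes did, and of the 50 highest in aged blood, 28 had r above 0 in young blood, where 46.3% of all genes did. Only 2 genes were in both lists, 4% of each. In counts this sparse, such weak correlations are no finding.

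Sri, which encodes the calcium-binding protein sorcin, had the highest mean r. It was picked by that value, so the counts of Sri in the same blood cells given below describe the choice and add no support. Its r with Steap4 was 0.0722 across 3272 aged cells and 0.137 across 1407 young cells, rank 3 and rank 1 of 2254, and the next highest mean r of the libraries was 0.0609 (Plekho2). Without thinning, its r was 0.157 (aged) and 0.210 (young), rank 1 in each, with Gpr146 next in aged blood (0.0726) and Ctsb next in young blood (0.101). Taken within clusters it was 0.0701 and 0.129, close to the values over all cells.

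In counts, cells with at least 1 Steap4 UMI had Sri at 256 CPM (225 to 290), against 119 CPM (113 to 125) in cells with none, in aged blood. In young blood the levels were 282 CPM (249 to 318) and 138 CPM (127 to 148). A Sri UMI was seen in 57.0% of the 230 aged cells with Steap4 and in 32.0% of the 3044 without it, and in 59.8% of the 229 young cells with Steap4 and 31.5% of the 1273 without it. Median depths were close, at 4220 and 4012 UMIs in aged and 3969 and 3864 UMIs in young cells with and without Steap4. By the number of Steap4 UMIs (0, 1, 2, and 3 or more), Sri was 119, 214, 308 and 302 CPM in aged blood and 138, 289, 229 and 318 CPM in young blood. In both libraries the intervals of the cells with 1, 2, and 3 or more Steap4 UMIs overlap, and all lie above that of the cells with none.

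With cells thinned to equal depth, the log2 ratio of Sri in cells with over cells without Steap4 was 0.996 (0.52 to 1.44) in aged and 0.95 (0.49 to 1.38) in young blood. The Sri ratio was above 0 in 7 of 7 clusters of aged blood and in 6 of 7 of young blood, where cluster 1 had only 3 cells with Steap4. Such cluster counts were not taken for other genes. In young stroke marrow, the 13 mature neutrophils with Steap4 had Sri at 352 CPM (209 to 556), against 244 CPM (178 to 327) in the 51 without, and these intervals overlap.

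**Figure D4:**
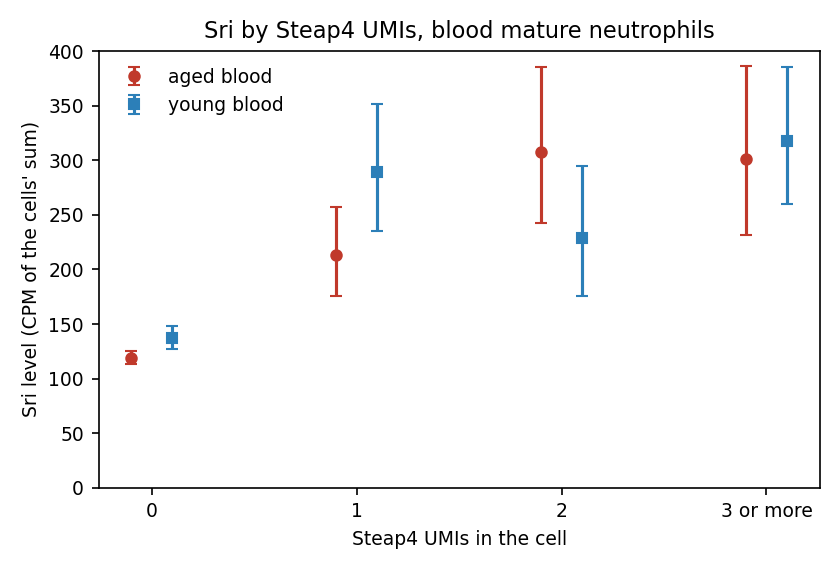
Sri level (CPM of the cells' sum, y axis) in blood mature neutrophils by the number of Steap4 UMIs in the cell (x axis), for aged (circles) and young (squares) blood; bars are 95% Poisson intervals. Cells with 1 or more Steap4 UMIs lie at 214 to 318 CPM, above the 119 CPM (aged) and 138 CPM (young) of cells with none.

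Sri is the neighbour of Steap4 in the genome. It lies on the same strand of chromosome 5, from 8046078 to 8069379 (GRCm38), 63.9 kb beyond the end of Steap4, and no other protein-coding gene is annotated between them. This position was looked up after the value of Sri had been seen. Of the 14 other genes annotated within 500 kb, 4 are protein coding and 8 are among the genes counted here. Of those 8, Sri was the only one with at least 50 CPM in both blood libraries, and 3 had 0 UMIs in blood mature neutrophils. The UMIs of the other 4, in aged and young blood mature neutrophils, were 2 and 0 for Adam22, 9 and 5 for Dbf4, 20 and 7 for Slc25a40, and 0 and 5 for the lincRNA Gm30835, which ends 0.111 kb before Steap4 on the other strand. The ends of the annotated Steap4 and Sri transcripts share 0 words of 31 bases. The start of Sri is overlapped by the antisense gene Gm15731, and no source used here says whether counting used strand, so reads of that pair may be mixed.

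The order of Sri levels over stages differed from that of Steap4. Sri was 129 CPM (aged) and 161 CPM (young) in blood mature neutrophils, lower in aged blood as Steap4 was but with a log2(CPM + 20) difference of −0.28. It was 154 CPM (aged) and 268 CPM (young) in mature neutrophils of stroke marrow, and 390 and 390 CPM in immature neutrophils of stroke marrow and 360 and 333 CPM in those of steady-state marrow, the stage where Steap4 was at or near 0.

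**Figure D5:**
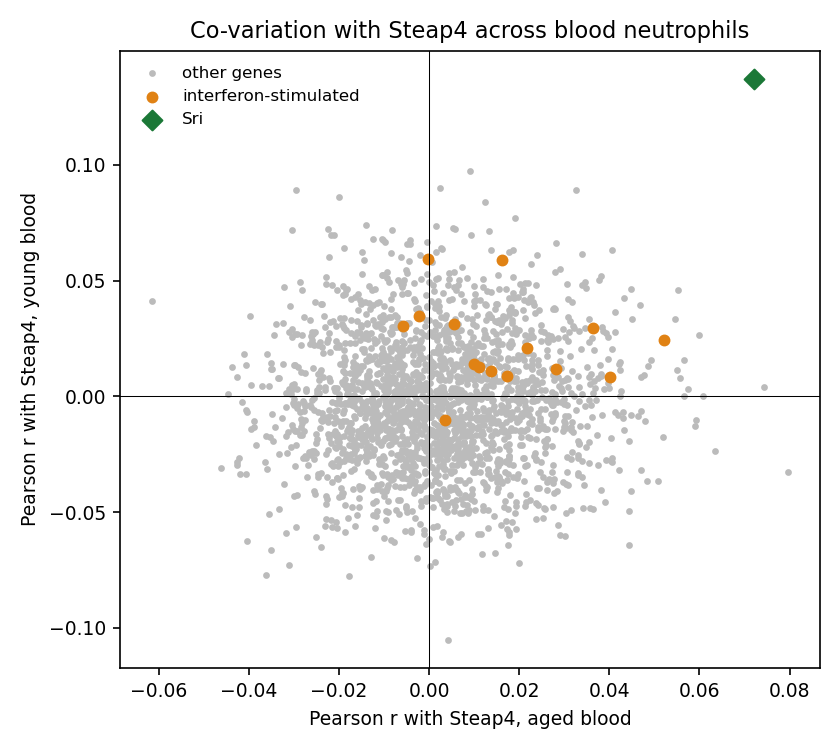
Pearson r with Steap4 across blood mature neutrophils thinned to 1500 UMIs, in aged blood (x axis, 3272 cells) and young blood (y axis, 1407 cells), for 2254 genes (grey), the 15 measured interferon-stimulated genes (orange) and Sri (green diamond). The cloud is round about 0, Sri lies alone at the upper right (0.0722 and 0.137), and 11 of the 15 interferon-stimulated genes have r above 0 in both libraries.

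The other genes among the 15 of highest mean r had r between 0.00248 and 0.0974 in either library. They included Plekho2, Acbd3, Il1b, which encodes the cytokine interleukin-1 beta, Ndufa7, a subunit of respiratory complex I, Cd82, Trps1, Ppp1ca, a phosphatase catalytic subunit, the GTPase Rheb, the ETS factor Fli1, Emilin2, the chaperone Calr, the triglyceride lipase Pnpla2 and Ap3m1. The 5 lowest were Retnlg (−0.0363 in aged and −0.0773 in young blood), a secreted marker of maturing neutrophils, Rpl28, the chemokine gene Ccl6, the kinase gene Ptk2b and the histone gene H3f3b, and 4 of these 5 were below 0 in both libraries. As a set chosen on these r values, they support nothing further.

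Lists of related genes were read in the same cells, counting members with at least 50 CPM in both libraries. Of the 38 interferon-stimulated genes, 15 were measured, of which 12 had r above 0 in aged and 14 in young blood, 11 in both and 0 below 0 in both, with median r of 0.0138 and 0.0210. Over all 2254 genes, 558 were above 0 in both and 577 below 0 in both, with medians of 0.00147 and −0.00252. Slfn5 (0.0522 aged, 0.0243 young), Slfn4 (0.0163, 0.0590), Oasl2 (0.0365, 0.0294), an antiviral gene, and Parp14 (−0.000331, 0.0594) had the highest mean r of the list. Taken within clusters, the number above 0 in both was 3 of 15. The same 15 genes were lower in aged than in young blood in 15 of 15 cases, with a median log2 ratio of −0.93, where 50.4% of all measured genes were lower.

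Of the 20 genes of TNF and NF-kB responses, 12 were measured, of which 8 had r above 0 in each library and 6 in both, with medians of 0.00651 (aged) and 0.0289 (young). Il1b had r of 0.0406 and 0.0632, Ptgs2, the inducible cyclooxygenase, 0.0240 and 0.0612, Birc3 0.0226 and 0.0574, and the chemokine gene Cxcl2 −0.0423 and −0.0266. Of 16 genes of IL-6 and G-CSF signalling, 13 were measured, of which 9 (aged) and 6 (young) were above 0. Both libraries had 5 of them above and 3 below 0, with medians of 0.00337 (aged) and −0.00511 (young). Of all measured genes, 52.9% (aged) and 46.3% (young) were above 0. The G-CSF receptor gene Csf3r had 0.0346 and 0.0492, the feedback inhibitor gene Socs3 0.0609 and 7.17e-05, and Il1r2 −0.0142 and −0.0172. The r of Socs3 was thus near 0 in young blood. Of 23 immediate early and dissociation stress genes, 18 were measured, of which 11 were above 0 in each library and 6 in both, with medians of 0.00434 and 0.00430. Btg2 had r of 0.0185 and 0.0515 and Klf2 −0.0192 and −0.0416.

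Genes close to the known activity of STEAP4 had r of both signs, as did all measured genes. Of those 2254, 52.9% (aged) and 46.3% (young) were above 0, with 558 above and 577 below 0 in both libraries. The list counts are given beside these shares, and nothing is read from them. Of 22 iron-handling genes, 9 were measured, of which 7 (aged) and 4 (young) had r above 0 and 3 in both. Bach1, a haem-responsive repressor, had 0.0130 and 0.0353, the ferritin heavy chain gene Fth1 0.0361 and −0.00908, Nfe2l2 0.00174 and 0.0242, and Lcn2, which binds bacterial iron carriers, −0.0255 and −0.000505. Of 12 copper-handling genes, 1 was measured, the copper chaperone gene Atox1, with −0.0396 and −0.0139. Of 10 genes of NADPH supply and the NADPH oxidase, 8 were measured, of which 3 were above 0 in each library, 2 in both and 4 below 0 in both. Oxidase subunit genes had r of both signs, at 0.0152 and 0.0523 for Ncf4, −0.0129 and −0.0333 for Ncf1, and −0.0254 and −0.0420 for Cybb.

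The lists of neutrophil state were also mixed. Over all measured genes, 52.9% (aged) and 46.3% (young) were above 0, and 558 of 2254 in both. Nothing is read from the list counts here either. Of 16 receptors of neutrophil ageing and retention, 13 were measured, of which 8 (aged) and 6 (young) were above 0 and 4 in both, with Cxcr2, the chemokine receptor used for egress, at 0.0306 and 0.0488, Itga4 at 0.00409 and 0.0479, Selplg at −0.0218 and 0.0696, and Itgam at −0.0150 and −0.0211. Of 10 genes listed with specific granules, 4 were measured, of which 2 (aged) and 1 (young) were above 0, with the collagenase gene Mmp8 at −0.0199 and −0.0282. Of 12 genes of gelatinase granules and secretory vesicles, 11 were measured, of which 5 were above 0 in each library and 3 in both, with Mmp9 at −0.0301 and −0.00291 and Arg2 at 0.0130 and 0.0160.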

How the data were processed

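The deposited table holds raw UMI counts per gene and cell made by the authors, with no normalization, and each cell was placed in its library by its column name. Per the submitters' processing notes, the tools were UMI-tools, Subread, featureCounts 1.6.4, STAR 2.5.3a and Cell Ranger 3.0.2, whose roles are not given in the sources used here, and the build was GRCm38 (mm10). Cells were kept from 500 UMIs and 200 genes upward, with mitochondrial UMIs of 10% or less. Scrublet scores over 0.25 were removed as doublets (scanpy 1.11.5), between 0.904% and 6.46% of a library. Simulated doublets passed that score in 15% (aged) and 10.1% (young) of cases in the stroke libraries, and in 23.9% to 43.2% in the others. Each context was clustered alone (2000 variable genes without Steap4, 30 components, 15 neighbours, Leiden resolution 1, leidenalg 0.10.2) and named from markers of 18 classes. The gene, the lists and the markers were chosen with earlier results of these data known, and the naming thresholds were set after cluster tables had been seen. Unnamed cells were 33.9% (aged) and 43.6% (young) of stroke marrow, 0.191% and 0.0527% of blood, and 20.0% and 20.0% of steady-state marrow.

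Counts were summed per library and class and divided by the class total (CPM). Levels have exact Poisson intervals, shares Clopper-Pearson intervals and ratios exact conditional intervals for Poisson counts; UMIs that cluster in cells make all of these too narrow. No test was run, since each group has 1 library. Background shares are the percentage of genes past the same fold. Co-variation is Pearson r across cells of log(1 + count) after thinning to 1500 UMIs. Named genes are Steap4, the measured STEAP family, the 15 highest and 5 lowest by mean r, the 10 closest over class sums, and up to 4 members of each of the 11 lists with the largest absolute mean r; the genes around Steap4 were added after the data were seen. Some genes that meet this rule are not reported here. The ratio and correlation steps were run on simulated counts. There the genes other than Steap4 and Sri were drawn as Poisson counts, and Steap4 was left out of the check of intervals. That check therefore does not cover counts as uneven as those of Steap4. Alternatives used edgeR 4.0.16 and DESeq2 1.42.0 (R 4.3.3) for scaling only; the rest ran in Python 3.11.15 with pandas 2.3.3, scipy 1.17.1, numpy 2.4.6 and matplotlib 3.10.9.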

Additional observations from a re-analysis of the deposited data

How the results depend on the processing

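The log2 ratio of Steap4 in aged over young blood mature neutrophils stayed between −1.62 and −1.26 over 10 alternatives: doublets kept, resolution 0.5 and 1.5, cells of at least 1000 UMIs, TMM and DESeq2 scaling, without the 10 cells with the most Steap4 UMIs, without the interferon-rich cluster, without the cluster with the most platelet RNA (added after the data were seen), and the equal-weight mean over clusters, which gave −1.26. Of 129 alternative values, 110 stayed within their counting interval, within 1.5 times a count or within 0.05 of an r. The other 19 moved further, of which 1 changed sign, the young ratio of stroke marrow over blood. Ratios left with 0 UMIs on a side had no value and are not among the 129. Without the 10 cells with the most Steap4 UMIs, this befell the age ratios of stroke marrow and the aged ratio of stroke marrow over blood. It also befell blood and stroke marrow over steady-state marrow at each age. Without the 10 cells with the most Steap4 UMIs the level was 27.1 (aged) and 81.6 CPM (young) in blood, and 0 and 15.5 CPM in stroke marrow mature cells, of which that removes all 5 aged and 10 of 13 young cells with a UMI, so the young ratio of stroke marrow over blood became −2.39. The step removes a far larger part of the small stroke class than of blood, so this change of sign cannot decide the direction. Without the interferon-rich cluster the young blood level was 81.2 CPM. With cells of at least 1000 UMIs, the young class of steady-state marrow had 8 UMIs in place of 1, so blood over steady-state marrow became 5.65 and stroke over steady-state marrow 2.22. The share of cells with a UMI depended on depth: 2.60% (aged) at 1000 UMIs, 5.07% and 12.8% (aged and young) at 2500, and 7.03% and 15.2% unthinned. The share of genes lower by at least 2-fold in aged blood was 1.07% at a mean of 50 CPM and 9.13% with no filter. Within clusters, 3 interferon-stimulated genes had r above 0 in both libraries, against 11 over all cells. Sri kept the highest mean r under each of the 6 other settings tried for co-variation, all of which reuse the blood libraries in which it was picked. Its rank within a library moved more. Without the 10 cells with the most Steap4 UMIs it was 7 (aged) and 2 (young), and at a mean of 20 CPM it was 5 (aged) and 1 (young). No paired analysis was possible because each group has 1 library. With 7 and 32 UMIs, the stroke marrow mature classes limit every ratio that uses them.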
